A study of Homo sapiens with 12 samples.

Results

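The interaction of MEIS1 expression with HOXB13 knockout was measured by RNA sequencing of CWR22Rv1 cells, a human prostate carcinoma line established from a xenograft that regrew after castration. The 12 libraries fell into 4 groups of 3. Control cells carried exogenous Cas9 without a guide RNA, LV-MEIS1 cells carried MEIS1 on a lentiviral vector, HOXB13ko cells were a pool recombined from 6 clonal knockout lines made with Cas9 and a guide to HOXB13, and HOXB13ko-LV-MEIS1 cells were that pool infected with the MEIS1 vector. All 4 lines were cultured for 48 h before RNA was taken, in medium with puromycin, to which both the Cas9 construct and the lentiviral vector give resistance. Whether the LV-MEIS1 line also carried Cas9 is not given in the sources used here. Each group was a single line, and the labels do not say whether its 3 libraries came from separate infections, so p-values measure the spread between these libraries, which may be technical. A HOXB13ko line differed from Control by the edit, the guide and the passage through clones, and these cannot be told apart. LV-MEIS1 differed from Control by the vector, by being a separate line and perhaps by Cas9, which cannot be told apart either. The MEIS1 effect below is the difference between the lines of a pair.

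The members were genes in which the effect of MEIS1 differed between the line pairs. The effect in the intact pair (LV-MEIS1 minus Control) had subtracted from it the effect in the knockout pair (HOXB13ko-LV-MEIS1 minus HOXB13ko), on the scale log2(CPM + 0.5), where CPM is read counts scaled to the library total. This value is called the difference of effects, and a positive value means that the MEIS1 effect was more upward in intact cells. All 12 libraries entered 1 fit over 13951 genes, and a gene was called when its difference of effects exceeded a 1.5-fold change by limma's treat test at an adjusted p under 0.05. Of the 13951 genes, 409 were called, which is 2.93% of those tested. The difference was positive in 183 (1.31%) and negative in 226 (1.62%). The genes were then sorted by which of the 4 group means stood apart. A description of that kind follows from the values that made the call, so the sorting carries no test. Where 4 group means of a gene are given in a row, Control comes first and LV-MEIS1 next, followed by HOXB13ko and last by HOXB13ko-LV-MEIS1.

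MEIS1 is a homeodomain protein of the TALE class that binds DNA together with HOX proteins, which lengthens and sharpens the sequence that the complex recognizes. HOXB13 is the HOX protein of the posterior body axis that stays expressed in adult prostate epithelium. The study made the knockout to ask whether the response to MEIS1 depends on HOXB13, and the comparison of the line pairs addresses that question.

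The guide used to make the knockout line is shown because the labels of 6 libraries rest on it. It matched the reference genome (GRCh38) at chr17:48728454-48728473, within coding exon 1 of HOXB13. Its base nearest the start codon was base 121 of the coding sequence, counting the first base of that codon as 1. The gene lies on the minus strand and the guide on the plus strand. The run is written 5′ to 3′ with the 3-base PAM of the genome in capitals.
HOXB13 guide: ttgacagcaggcatcagcgtAGG

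Both manipulated genes were read first. MEIS1 stood at 4.24, 4.45 and 4.05 CPM in Control and at 49.6, 46.8 and 45.8 CPM in LV-MEIS1. It stood at 3.65, 3.59 and 3.42 CPM in HOXB13ko and at 30.1, 29.8 and 29.3 CPM in HOXB13ko-LV-MEIS1. The vector thus raised the MEIS1 transcript in both pairs, by 3.33 ± 0.07 (SE) and 2.90 ± 0.07 on the log2 scale. The difference of effects for MEIS1 itself was 0.44 ± 0.11, which did not exceed the 1.5-fold threshold (limma treat adjusted p = 1) but differed from 0 (limma eBayes adjusted p = 0.00627), and the 2 infected lines did not carry equal MEIS1 transcript. HOXB13 stood at 185, 215 and 187 CPM in Control, at 152, 150 and 151 CPM in LV-MEIS1, at 347, 326 and 307 CPM in HOXB13ko and at 326, 361 and 375 CPM in HOXB13ko-LV-MEIS1. All 6 libraries of the knockout lines read above every Control library for HOXB13. A gene total does not read a small edit in the first exon, so these values do not check the knockout label in either direction.

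In the intact pair 557 genes were called (3.99% of those tested) and in the knockout pair 1 gene was called (0.00717%), which was MEIS1. Against a fold of 1, limma eBayes at the same adjusted p passed 7 genes in the knockout pair, and of the 409 interacting genes these held SYT4 and the readthrough gene C1QTNF3-AMACR. Over the 409 genes the median size of the MEIS1 effect was 1.44 on the log2 scale in the intact pair and 0.12 in the knockout pair. No member was called in the knockout pair. In the intact pair 381 of the 409 were called, 161 higher and 220 lower. The remaining 176 of the 557 genes called in the intact pair did not reach the interaction threshold, although the difference of effects of all 176 passed limma eBayes. Over all 13951 genes, 4771 passed the same test.

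**Figure D1:**
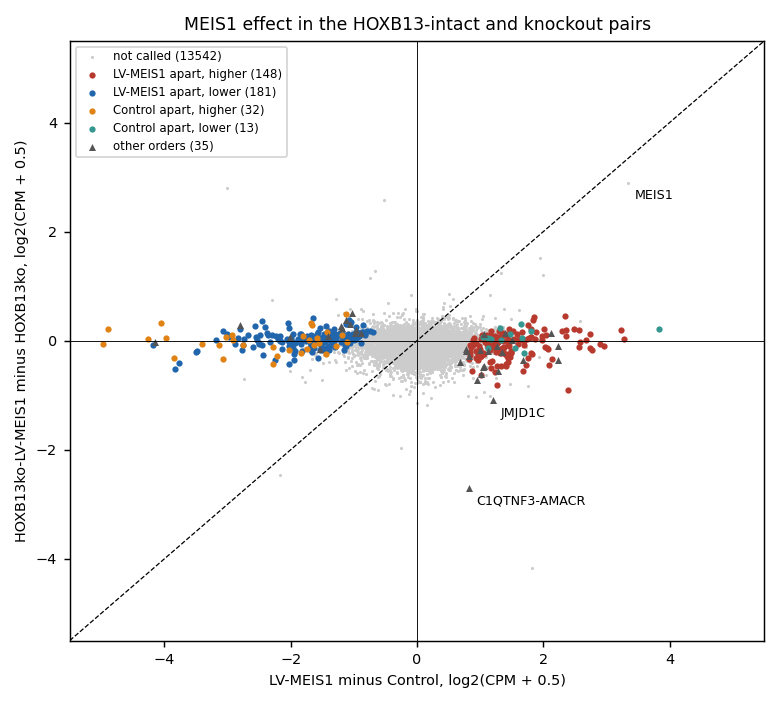
MEIS1 effect in the intact pair (x axis, LV-MEIS1 minus Control) against the effect in the knockout pair (y axis, HOXB13ko-LV-MEIS1 minus HOXB13ko), both in log2(CPM + 0.5), for 13951 genes. Colours mark the 409 called genes by the group mean that stood apart, the dashed line marks equal effects, and the coloured points lie along the horizontal axis, with MEIS1 near the dashed line and C1QTNF3-AMACR and JMJD1C below the axis.

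LV-MEIS1 was the group that stood apart in 329 of the 409 genes, 80.4%, meaning that the gap from its mean to the nearest other mean was larger than the whole range of the other 3 means. It was the higher group in 148 genes and the lower group in 181. Control stood apart in 45 genes, higher in 32 and lower in 13. HOXB13ko-LV-MEIS1 stood apart in 1 gene and HOXB13ko in 0. In 34 genes no single group stood apart. In all 329 genes of the first class the 3 LV-MEIS1 libraries lay wholly above or below the other 9, a pattern found in 29.1% of all genes, and in all 45 genes of the second class the 3 Control libraries did, a pattern found in 13.0% of all genes. In 178 of the 409 genes these held for 2 groups at once. The interacting genes were of lower level than most, with a median mean of 13.7 CPM against 29.1 CPM over all genes.

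**Figure D2:**
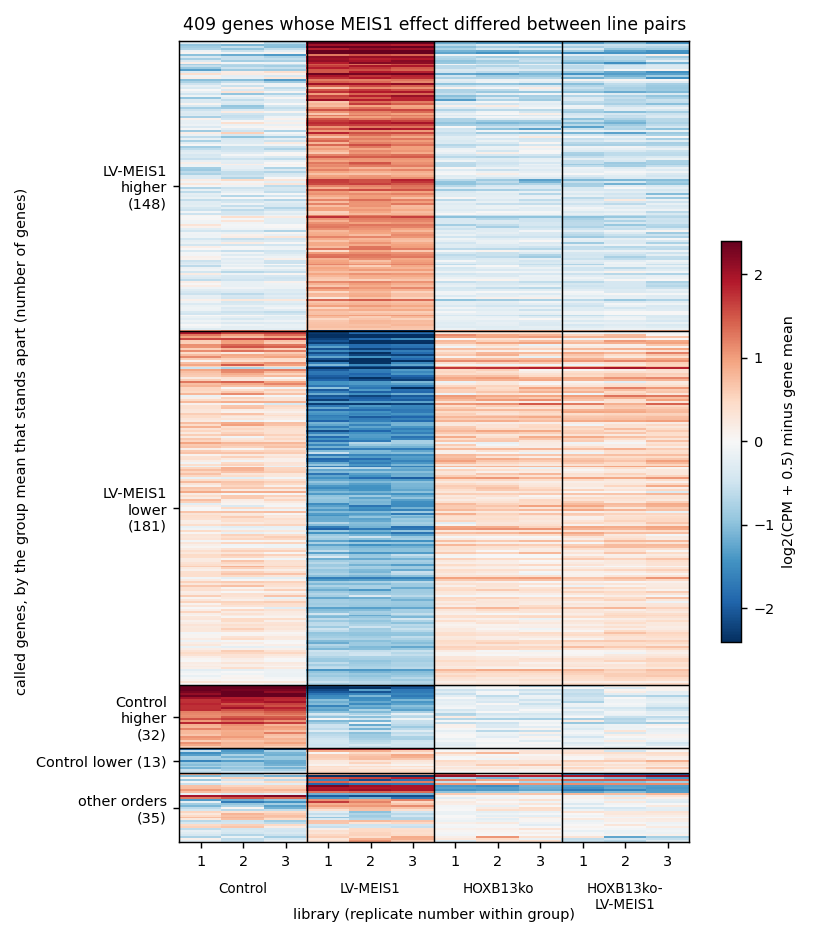
Level of each of the 409 called genes in each library, as log2(CPM + 0.5) minus the gene's mean over 12 libraries, with genes in rows grouped by the group mean that stood apart and libraries in columns. The columns of LV-MEIS1 stand apart in the upper 2 blocks, and those of Control in the next 2.

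Where the knockout pair sat between the intact lines was expressed as a position, with 0 at the Control mean and 1 at the LV-MEIS1 mean. The median position of the 409 genes was 0.02, with quartiles at -0.30 and 0.30 and extremes at -2.50 and 1.32. In 194 genes the pair lay beyond Control on the side away from LV-MEIS1, in 161 it lay between Control and the midpoint, in 47 between the midpoint and LV-MEIS1, and in 7 beyond LV-MEIS1. In 170 genes the pair lay within 0.25 of Control. Among the 329 genes with LV-MEIS1 apart the median position was -0.04, and among the 45 with Control apart it was 0.68. The rule for standing apart itself places the pair beyond the midpoint where Control is apart and short of it where LV-MEIS1 is apart. Among the 45 Control-apart genes the pair lay short of LV-MEIS1 in 38, a graded order on the log scale. The side of the midpoint thus follows from the class, and Control and LV-MEIS1 enter the position on both sides, so it is given as a description.

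**Figure D3:**
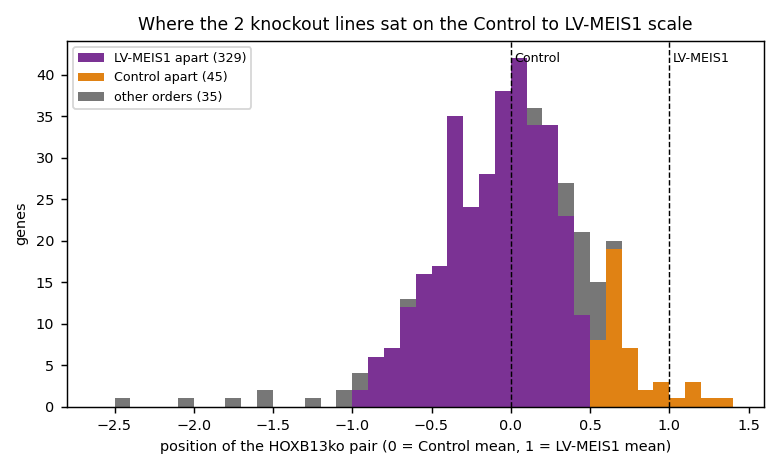
Number of called genes (y axis) by the position of the HOXB13ko and HOXB13ko-LV-MEIS1 mean on the scale from Control (0) to LV-MEIS1 (1) on the x axis, stacked by class. The 329 genes with LV-MEIS1 apart centre near 0 (median -0.04) and the 45 genes with Control apart lie at 0.53 or more. The class rule sets on which side of the midpoint each of these classes lies.

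Of the 148 genes with LV-MEIS1 apart and higher, 136 were called in the intact pair, 0 in the knockout pair, and 7 between HOXB13ko and Control (background 1.41% of genes). DCN encodes decorin, a secreted proteoglycan that binds collagen and several growth factor receptors. DCN stood at 2.46, 2.99 and 1.83 CPM in Control and at 28.3, 28.2 and 26.5 CPM in LV-MEIS1. It stood at 1.10, 0.947 and 0.899 CPM in HOXB13ko and at 0.930, 1.22 and 0.873 CPM in HOXB13ko-LV-MEIS1. All 3 LV-MEIS1 libraries were above the other 9, and all 6 knockout libraries were below every Control library. The difference of effects was 3.26 ± 0.22 (limma treat adjusted p = 7.6e-07).

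SLITRK6, a membrane protein of neurons and inner ear with leucine-rich repeats, had the same order of groups. SLITRK6 stood at 96.3, 89.4 and 97.0 CPM in Control, at 632, 663 and 597 CPM in LV-MEIS1, at 38.3, 34.3 and 38.3 CPM in HOXB13ko and at 32.7, 34.7 and 33.8 CPM in HOXB13ko-LV-MEIS1. As with DCN, the knockout lines were below Control, and for SLITRK6 that fall was itself called (HOXB13ko minus Control -1.34, limma treat adjusted p = 1e-06). The difference of effects was 2.86 ± 0.08. TMTC1, an O-mannosyltransferase of the endoplasmic reticulum, stood at a mean of 5.84 ± 0.33 (SD, n = 3) CPM in Control, 48.7 ± 2.5 in LV-MEIS1, 8.96 ± 1.2 in HOXB13ko and 8.28 ± 0.065 in HOXB13ko-LV-MEIS1. MCF2L, an exchange factor for small GTPases, stood at 1.64 ± 0.32, 19.4 ± 1.3, 1.48 ± 0.16 and 1.77 ± 0.13 CPM in the same order of groups, so only its LV-MEIS1 mean differed. ARSJ, a sulfatase, stood at 3.63 ± 0.58, 29.9 ± 1.6, 1.83 ± 0.12 and 1.78 ± 0.48 CPM. GABBR1, the GABA-B receptor subunit, had the widest difference in this class (3.30 ± 0.57), with 25.1, 32.4 and 29.4 CPM in LV-MEIS1 and 0.141 to 5.87 CPM elsewhere. It lies in the major histocompatibility region, for which the transcript reference holds alternative copies, and its spread among the HOXB13ko-LV-MEIS1 libraries (1.08, 2.58 and 0.141 CPM) was wide, so its size is uncertain.

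Among 38 listed HOX and TALE genes 2 were called (5.26%, against 2.93% of all genes), with LV-MEIS1 higher. IRX5, an Iroquois factor of the TALE class, stood at 29.8, 32.3 and 27.1 CPM in Control, 78.4, 72.5 and 80.7 CPM in LV-MEIS1, and between 30.1 and 36.6 CPM in the 6 knockout libraries.

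Of the 181 genes with LV-MEIS1 apart and lower, 177 were called in the intact pair, 0 in the knockout pair and 10 between HOXB13ko and Control (background 1.41% of genes). GPER1, a membrane receptor for estrogen, had the widest fall. It stood at 72.1, 82.6 and 72.3 CPM in Control and at 3.49, 3.80 and 3.74 CPM in LV-MEIS1. It stood at 70.3, 70.6 and 65.3 CPM in HOXB13ko and at 60.7, 67.8 and 66.6 CPM in HOXB13ko-LV-MEIS1. The knockout libraries lay just below the Control range and far above LV-MEIS1, and the difference of effects was -4.11 ± 0.10 (limma treat adjusted p = 1.5e-11). GABRB2, a subunit of the GABA-A chloride channel, stood at 50.8, 8.56, 69.3 and 67.1 CPM as means in the same order of groups. MFAP2, a microfibril protein, stood at 16.9 ± 2.5, 1.58 ± 0.32, 15.9 ± 1.3 and 18.1 ± 2.4 CPM.

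In CDH6 and SRRM4 the same class held on the log scale but the knockout lines were well below Control. CDH6, a cadherin of kidney and neural crest, stood at 55.2, 45.2 and 46.1 CPM in Control, at 2.42, 3.47 and 3.48 CPM in LV-MEIS1, at 16.4, 17.4 and 18.6 CPM in HOXB13ko and at 13.3, 12.6 and 13.2 CPM in HOXB13ko-LV-MEIS1. SRRM4 is the splicing factor that includes microexons in neurons and is known for its part in neuroendocrine prostate cancer. It stood at 26.8, 27.4 and 29.3 CPM in Control, at 1.45, 2.02 and 2.84 CPM in LV-MEIS1, at 8.71, 11.4 and 9.92 CPM in HOXB13ko and at 7.84, 9.43 and 8.71 CPM in HOXB13ko-LV-MEIS1. Both lay at position 0.44, and HOXB13ko was called below Control in each (log2 -1.45 for CDH6 and -1.44 for SRRM4). When group means were taken on linear CPM, LV-MEIS1 stood apart in 301 of the 409 genes, Control in 53 and no group in 54, so the border between the classes depends on the scale for genes of this kind.

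Called genes of the androgen response fell in LV-MEIS1 and not in the knockout pair. Of the 24 listed genes of that list, 8 were called, 33.3% against 2.93% of all genes, and all 8 were negative with LV-MEIS1 apart. The list was chosen with earlier results of these data known, so the share is a description. The median difference of effects over the 24 genes was -0.48, against 0.02 over all genes, and 19 of 24 were negative. SLC45A3 (prostein), a sugar transporter of prostate epithelium, stood at 151, 178 and 150 CPM in Control, at 23.5, 21.0 and 23.0 CPM in LV-MEIS1, at 167, 162 and 150 CPM in HOXB13ko and at 175, 185 and 196 CPM in HOXB13ko-LV-MEIS1. STEAP1, a membrane metalloreductase homologue, stood at 166, 161 and 156 CPM in Control, at 29.5, 25.8 and 25.9 CPM in LV-MEIS1, at 195, 183 and 191 CPM in HOXB13ko and at 200, 208 and 185 CPM in HOXB13ko-LV-MEIS1. For both genes the LV-MEIS1 libraries were below the other 9.

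NDRG1, a stress and differentiation gene also induced by androgen, stood at 53.7, 12.8, 110 and 130 CPM as means in the same order of groups. Among the means the order was LV-MEIS1 lowest, Control next and the knockout lines highest. The kallikrein proteases KLK2 and KLK4 had smaller differences (-1.22 and -1.41), as did the metalloreductase STEAP2 (-1.83) and the co-chaperone FKBP5 (-0.92). KLK3, the gene of prostate-specific antigen, was not called (-0.55), nor was TMPRSS2 (-0.21). In bulk RNA, fewer cells of a type and less RNA per cell cannot be told apart. TARP, a transcript of the T cell receptor gamma locus under androgen control in prostate, went the other way (1.28) without being called.

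**Figure D4:**
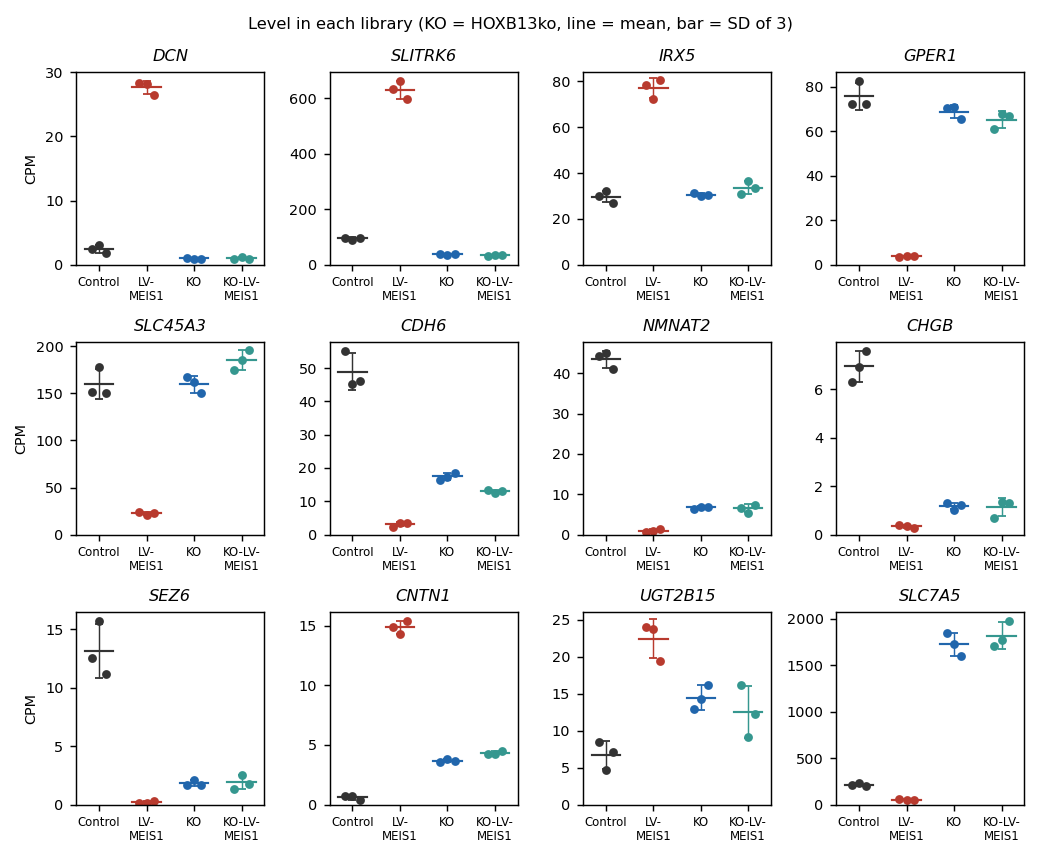
Level (y axis, CPM from 0) of 12 genes in each library of the 4 groups (x axis), with the group mean as a line and the SD of 3 libraries as a bar. LV-MEIS1 stands apart in the first 5 genes. CDH6, NMNAT2, CHGB and SEZ6 are highest in Control and lowest in LV-MEIS1. CNTN1 and UGT2B15 are lowest in Control, and for SLC7A5 the knockout lines are highest.

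Of the 32 genes highest in Control, those with the largest differences were HBA2, NMNAT2, CHRNB2, SEZ6, PHF21B and PHYHD1. All 32 were called in the intact pair and 0 in the knockout pair. In 22 HOXB13ko was also called lower than Control, against 1.41% of all genes called between these lines in either direction. The class rule sets both knockout means away from Control, so this excess follows partly from the sorting. NMNAT2, the NAD-synthesizing enzyme that keeps axons alive, stood at 44.3, 45.0 and 41.1 CPM in Control and at 0.592, 0.910 and 1.30 CPM in LV-MEIS1. It stood at 6.34, 6.96 and 6.94 CPM in HOXB13ko and at 6.71, 5.42 and 7.41 CPM in HOXB13ko-LV-MEIS1. The groups did not overlap apart from the 2 knockout lines, which did, and the difference of effects was -4.91 ± 0.22 (limma treat adjusted p = 9.8e-09).

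CHRNB2, a subunit of the neuronal nicotinic receptor, stood at 12.9, 11.8 and 11.6 CPM in Control, at 0.0553, 0.516 and 0.259 CPM in LV-MEIS1, and between 1.18 and 2.15 CPM in the 6 knockout libraries. SEZ6, a membrane protein of neuronal dendrites, stood at 12.5, 15.7 and 11.2 CPM in Control, at 0.166, 0.141 and 0.333 CPM in LV-MEIS1, and between 1.37 and 2.53 CPM in the knockout libraries. PHF21B, a PHD finger protein, stood at 10.0 ± 1.6 CPM in Control, 0.161 ± 0.044 in LV-MEIS1, 1.07 ± 0.31 in HOXB13ko and 1.11 ± 0.24 in HOXB13ko-LV-MEIS1. A count of 3 reads corresponded to 0.105 to 0.175 CPM in these libraries, so the LV-MEIS1 values of SEZ6 and PHF21B rest on a few reads each. PHYHD1, a dioxygenase, had 17.0 ± 0.90 CPM in Control and 0.521 to 2.53 CPM elsewhere. HBA2, the alpha globin gene, read 13.3, 14.0 and 17.5 CPM in Control, 0, 0.0469 and 0 CPM in LV-MEIS1, and 0.979 to 2.17 CPM in the knockout libraries. All 3 LV-MEIS1 libraries were under the value of 3 reads, and Control was at least 107-fold higher than that value. The coding sequence of HBA2 is nearly identical to that of HBA1, so which copy gave the reads is uncertain.

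The exocytosis and granule list had 12 of 40 listed genes called, 30.0% against 2.93% of all genes. Its calls were 2 positive and 10 negative, and its median was -0.09 over the 40. Its members did not move as 1 group but by class. The granule proteins CHGB, SCG3 and VGF, the vesicle protein SYP, the membrane fusion protein STX1A and SEZ6 were highest in Control. VGF, the precursor of several neuropeptides, stood at 90.8, 107 and 94.8 CPM in Control, at 13.2, 9.37 and 12.5 CPM in LV-MEIS1, at 22.3, 22.3 and 18.9 CPM in HOXB13ko and at 19.1, 24.6 and 22.9 CPM in HOXB13ko-LV-MEIS1. SYP, synaptophysin, stood at 17.0, 17.0 and 14.4 CPM in Control, at 1.24, 1.85 and 2.14 CPM in LV-MEIS1, and between 3.51 and 4.35 CPM in the knockout libraries. CHGB, a granin, stood at 6.29, 6.93 and 7.58 CPM in Control, at 0.397, 0.364 and 0.268 CPM in LV-MEIS1, and between 0.694 and 1.36 CPM in the knockout libraries. For these genes the level fell from Control in both LV-MEIS1 and HOXB13ko, further in LV-MEIS1.

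The calcium sensors SYT4 and SYT7 belonged instead to the LV-MEIS1-lower class. SYT4 stood at 155, 143 and 137 CPM in Control, at 75.0, 68.3 and 66.7 CPM in LV-MEIS1, at 192, 193 and 194 CPM in HOXB13ko and at 241, 250 and 243 CPM in HOXB13ko-LV-MEIS1. It was the 1 gene of that class whose MEIS1 effect in the knockout pair passed limma eBayes (0.34, adjusted p = 0.0456), opposite in sign to the effect in the intact pair. The Rab effectors and partners SYTL5 and RAB3B (1.04) were both called positive, with LV-MEIS1 higher, and the call of RAB3B was lost on leaving out any of several libraries, Control replicate 1 among them. Of 5 neuroendocrine markers, SYP and ENO2 were listed, and CHGA and INSM1 were not among the genes of the table. The sum of the listed pair lay between 199 and 212 CPM in Control, 162 and 170 in LV-MEIS1, 167 and 178 in HOXB13ko and 171 and 182 in HOXB13ko-LV-MEIS1. SYP, given above, made up only a small part of this sum, which was mostly ENO2. The part of these markers in the result was not tested. SNAP25, the partner of STX1A in membrane fusion, missed the threshold narrowly (-1.49, limma treat adjusted p = 0.0505).

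Of the 13 genes lowest in Control, all were called in the intact pair and 8 were also called higher in HOXB13ko than in Control. The background for that comparison was 1.41% of genes, and the excess again follows partly from the class rule. CNTN1, contactin 1, an adhesion protein of axons, stood at 0.705, 0.699 and 0.372 CPM in Control, at 14.9, 14.3 and 15.4 CPM in LV-MEIS1, at 3.56, 3.84 and 3.64 CPM in HOXB13ko and at 4.25, 4.23 and 4.51 CPM in HOXB13ko-LV-MEIS1. All 4 groups were separate, with a difference of effects of 3.62 ± 0.19. SOX2, a factor of stem and neural cells, stood at 1.10, 1.82 and 1.27 CPM in Control, at 5.53, 5.67 and 6.99 CPM in LV-MEIS1, and between 3.37 and 4.59 CPM in the knockout libraries. SLC2A12, a glucose transporter whose exons overlap TBPL1 on the other strand, stood at 18.6, 59.4, 37.3 and 38.7 CPM as means in the same order of groups.

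Of 14 listed androgen metabolism genes 2 were called (14.3%, against 2.93% of all genes), both of this class. UGT2B15 glucuronidates dihydrotestosterone and stood at 8.40, 4.72 and 7.11 CPM in Control, at 24.1, 23.8 and 19.4 CPM in LV-MEIS1, and between 9.17 and 16.2 CPM in the knockout libraries. Its close paralogues share long stretches of sequence, so its level is uncertain. AKR1C3 reduces androstenedione to testosterone and stood at 18.9, 21.3 and 19.1 CPM in Control, at 53.5, 49.5 and 47.2 CPM in LV-MEIS1, at 51.5, 52.0 and 49.5 CPM in HOXB13ko and at 59.7, 56.1 and 65.4 CPM in HOXB13ko-LV-MEIS1. The Control libraries of AKR1C3 were below the other 9, which spanned 47.2 to 65.4 CPM. DSCAM, an adhesion protein, had the same shape at 2.95, 8.16, 8.10 and 8.20 CPM as means (difference of effects 1.31 ± 0.17), and its call was lost without Control replicate 3, LV-MEIS1 replicate 2 or HOXB13ko-LV-MEIS1 replicate 2. KIRREL1, a slit diaphragm protein, was at 0, 0.0865 and 0.154 CPM in Control and between 0.941 and 1.92 CPM in the other 9 libraries, and was lost without LV-MEIS1 replicate 2 or 3 or HOXB13ko replicate 2. GALNT12, which starts O-glycans, stood at 1.93, 6.23, 3.87 and 4.29 CPM as means and was lost without LV-MEIS1 replicate 2 or HOXB13ko replicate 3.

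In 10 genes Control lay in the middle, with LV-MEIS1 on one side and both knockout lines on the other. SLC7A5, the large neutral amino acid transporter LAT1, had the largest difference of effects among them. It stood at 211, 236 and 199 CPM in Control, at 57.5, 48.2 and 52.6 CPM in LV-MEIS1, at 1853, 1726 and 1599 CPM in HOXB13ko and at 1706, 1771 and 1979 CPM in HOXB13ko-LV-MEIS1. It was lower in LV-MEIS1 than in Control by 2.02 on the log2 scale, and the knockout pair differed by 0.08 (difference of effects -2.09 ± 0.11, limma treat adjusted p = 3.8e-07). The 52 listed genes of amino acid transport and the ATF4 response had a median of -0.20. SLC7A5 was the 1 called among them (1.92%, against 2.93% of all genes). Its heavy chain partner SLC3A2 was at -0.53 and ATF4 at -0.28, neither of them called.

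Of the 10 genes with Control in the middle, 4 were negative and 6 positive, the positive ones with LV-MEIS1 highest and the knockout lines lowest. The 6 were RHOD, CYP4F29P, LUM, MAOA, IGF1 and FN1. LUM, lumican, a proteoglycan of the decorin family, stood at 16.4, 14.4 and 14.7 CPM in Control, at 49.6, 41.9 and 40.2 CPM in LV-MEIS1, at 3.48, 3.18 and 4.21 CPM in HOXB13ko and at 3.53, 3.77 and 3.59 CPM in HOXB13ko-LV-MEIS1. IGF1, a ligand of the IGF1 receptor, stood at 18.1, 15.3 and 15.7 CPM in Control, at 35.7, 38.0 and 34.9 CPM in LV-MEIS1, at 2.93, 3.07 and 3.34 CPM in HOXB13ko and at 2.32, 2.59 and 3.11 CPM in HOXB13ko-LV-MEIS1. FN1, fibronectin, stood at 46.7, 75.0, 16.2 and 12.3 CPM as means in the same order of groups. LUM, IGF1 and FN1 were each called lower in HOXB13ko than in Control (log2 -1.93, -2.22 and -1.50) and positive in the difference of effects (1.49, 1.32 and 1.07). The call of FN1 was lost without Control replicate 2 and under several other omissions. IGF1R, the receptor of IGF1, was of the LV-MEIS1-lower class, at 41.9, 18.7, 54.5 and 51.8 CPM as means in the same order of groups. It lies in the stretch of chromosome 15 described below, where all called genes were negative. IL1R2, a decoy receptor for interleukin 1, was at 0.990, 0.182, 4.41 and 5.89 CPM and RHOD, a small GTPase, at 3.35, 9.26, 1.15 and 0.951 CPM. Both calls were lost without Control replicate 3 among other libraries.

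In 21 genes the knockout pair lay between Control and LV-MEIS1 with neither end apart. CPLX2, complexin 2, which clamps vesicle fusion, stood at 8.08, 8.43 and 9.64 CPM in Control, at 0.0553, 0 and 0 CPM in LV-MEIS1, at 1.77, 1.60 and 1.71 CPM in HOXB13ko and at 1.56, 1.28 and 2.23 CPM in HOXB13ko-LV-MEIS1. LV-MEIS1 was under the value of 3 reads throughout, and Control was at least 62.6-fold higher than it. UNC13A, which primes synaptic vesicles, stood at 65.9, 22.4, 42.5 and 38.3 CPM as means. AGAP2, a GTPase-activating protein, stood at 24.1, 3.08, 8.09 and 10.0 CPM, and its exons overlap those of OS9 and TSPAN31 on the other strand. CCDC170 rose with LV-MEIS1 instead, at 0.355, 3.51, 1.67 and 1.19 CPM. These genes had the graded order of the Control-apart class with a smaller gap at the Control end.

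HOXB13ko-LV-MEIS1 stood apart in 1 gene, C1QTNF3-AMACR. It read 0.105, 0 and 0 CPM in that group and 0.617 to 4.98 CPM in the other 9 libraries. HOXB13ko was at least 26.9-fold above the value of 3 reads in that group. The name is a readthrough transcript that shares exons with both of its parent genes, so how reads were shared between them could move it. JMJD1C, PCDHGA3 and ZBTB20 had another order, with the high libraries split between LV-MEIS1 and HOXB13ko. JMJD1C, a histone demethylase family member, stood at 10.3, 16.0 and 9.91 CPM in Control, at 26.9, 23.9 and 33.6 CPM in LV-MEIS1, at 19.7, 37.5 and 23.2 CPM in HOXB13ko and at 22.7, 7.21 and 9.84 CPM in HOXB13ko-LV-MEIS1. Groups overlapped in all 3 genes, and each lost its call without LV-MEIS1 replicate 3 among other libraries.

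The interaction called 28 genes that the intact pair alone did not. In each of them the knockout-pair value had the opposite sign to the intact-pair value, which follows from how these genes were selected. The difference of effects has a wider error than the intact-pair effect, so it passes alone only where it is the larger. None of these knockout-pair values was called. FN1, LTBP1, RAB3B, SEMA6B, IL1R2 and ANO5 were among them. ANO5, a membrane protein of muscle, had effects of 0.88 and -0.56 and stood at 1.22, 2.68, 1.16 and 0.629 CPM as means. Its call was lost in 11 of the 12 fits that left out a library, the exception being HOXB13ko-LV-MEIS1 replicate 2. The last genes inside the threshold were IKZF3, SALL2 and SPTB, at 1.25, 1.23 and 1.30, and the first outside were NECTIN4, SNAP25 and RAB39A, at -1.20, -1.49 and -1.42.

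Lists of receptors, adhesion proteins and matrix proteins held called genes in both directions. Their called shares stand against 2.93% of all genes. The lists were chosen with earlier results of these data known, so the shares are descriptions. Of 33 listed neurotransmitter receptors, 7 were called (21.2%), 2 positive and 5 negative. Beside those above they held CHRNA2, a nicotinic subunit, at 22.1, 5.60, 24.0 and 24.5 CPM as means, and CHRM4, a muscarinic receptor, at 4.08, 0.858, 3.06 and 3.07 CPM. Of 34 neuronal adhesion genes, 10 were called (29.4%), 5 in each direction, with a median of -0.02. FLRT3 and FLRT2, which bind latrophilins and UNC5 receptors, went opposite ways. FLRT3 stood at 3.64, 20.4, 2.36 and 3.36 CPM as means and FLRT2 at 12.1, 3.65, 10.6 and 10.4 CPM. SLITRK6 was higher in LV-MEIS1 while SLITRK3 and SLITRK4 were lower, the call of SLITRK3 being lost without LV-MEIS1 replicate 2 or 3, Control replicate 2 or HOXB13ko-LV-MEIS1 replicate 1. CADM2, a synaptic adhesion protein, stood at 5.64, 35.9, 5.81 and 6.72 CPM. CNTNAP2 (-2.36 ± 0.48) had the widest spread, with 10.2, 5.87 and 2.20 CPM in LV-MEIS1, and its call was lost in 9 of the 12 fits that left out a library, each Control and HOXB13ko-LV-MEIS1 library among them.

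Of 22 listed proteoglycan core proteins, 6 were called (27.3%, against 2.93% of all genes), 4 positive and 2 negative, with a median of 0.36. Beside DCN and LUM, the positive genes were HSPG2, perlecan of basement membranes, which overlaps LDLRAD2 on the other strand, at 3.55, 8.94, 2.77 and 1.70 CPM as means, and NRP1, a semaphorin and VEGF co-receptor, at 28.5, 103, 20.5 and 26.9 CPM. The negative genes were CD44, the hyaluronan receptor, at 43.1, 22.5, 62.1 and 68.9 CPM, and SPOCK1, a testican, at 181, 104, 256 and 288 CPM. In CD44 and SPOCK1 the knockout lines were above Control. TGFBR3, betaglycan, had a difference of 0.88 ± 0.17 that was not called (limma treat adjusted p = 0.887, eBayes adjusted p = 0.00162). Of 38 glycosaminoglycan enzymes 1 was called (2.63%), near the share of all genes. It was CHSY1, a chondroitin synthase (-1.01). Like IGF1R, it lies in the stretch of chromosome 15 described below.

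Of 43 collagens, laminins and matrix enzymes, 9 were called (20.9%, against 2.93% of all genes), 5 positive and 4 negative. COL6A2 stood at 11.5, 58.1, 6.71 and 7.70 CPM as means, and COL9A3 at 33.9, 8.33, 32.1 and 34.9 CPM. COL1A1, nidogen (NID1) and the protease ADAMTS1 were higher in LV-MEIS1, while the membrane metalloprotease MMP15 was lower. COL1A1 is also a fibroblast marker. With PDGFRB it was 1 of 2 listed among 7 such markers, and COL1A2, COL3A1, PDGFRA, THY1 and FAP were not among the genes of the table. The pair summed to 14.6 to 17.9 CPM in Control, 30.2 to 34.9 in LV-MEIS1, 19.1 to 20.8 in HOXB13ko and 16.2 to 18.9 in HOXB13ko-LV-MEIS1, and their part in the result was not tested. None of the 3 basal, 3 endothelial and 4 blood markers was among the genes of the table. Of 17 integrin genes 0 were called by limma treat, and their median was 0.45. By eBayes 12 of them passed, against 4771 of all 13951 genes. ITGB1 stood at 0.33 ± 0.07.

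**Figure D5:**
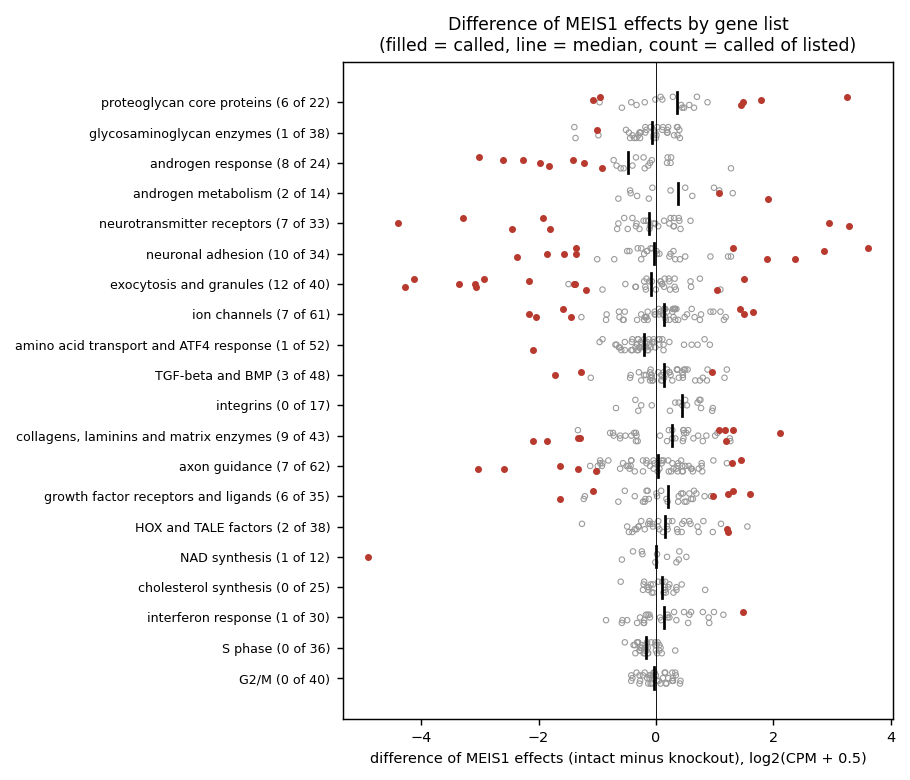
Difference of effects (x axis, log2(CPM + 0.5), intact minus knockout) of the listed genes of 20 gene lists (y axis, with called of listed genes). Filled points are called genes, open points are not, and the vertical line is the list's median, which is -0.48 for the androgen response list and within 0.45 of 0 elsewhere.

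Further lists are set beside the 2.93% of all genes that were called. Of 35 growth factor receptors and ligands, 6 were called (17.1%). ERBB2 was higher in LV-MEIS1, at 56.2, 113, 40.6 and 41.5 CPM as means, and was lost without HOXB13ko replicate 1 among others. HGF, the ligand of MET, stood at 37.5, 74.3, 30.1 and 25.1 CPM. IGFBP3, which binds IGF1, stood at 242, 848, 192 and 222 CPM, a difference of 1.60 ± 0.08. GFRA1, a GDNF co-receptor, was lower in LV-MEIS1 (-1.64) and was lost without LV-MEIS1 replicate 1 among others. Of 61 ion channels 7 were called (11.5%), led by the potassium channel KCNC4 at 343, 63.5, 507 and 424 CPM, and of 62 axon guidance genes 7 were called (11.3%), led by the receptor EPHA4 at 12.8, 1.25, 3.10 and 3.33 CPM. TGF-beta and BMP genes had 3 calls among 48 (6.25%): INHBB, the beta B subunit of activin and inhibin, at 30.8, 9.84, 56.5 and 61.8 CPM, the BMP receptor BMPR1B (-1.27) and LTBP1 (0.96). The last 2 were lost without LV-MEIS1 replicate 3 among others. Among interferon genes 1 of 30 was called (3.33%, near the share of all genes), IFI44L (1.48). By limma treat 0 of 36 S phase, 0 of 40 G2/M and 0 of 25 cholesterol synthesis genes were called. Limma eBayes passed 14, 12 and 7 of them, against 4771 of all 13951 genes, which is a similar share. The S phase median was -0.18, with 28 of 36 negative and a range from -0.53 to 0.33.

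Called genes lay beside other called genes more often than genes in general. Positions came from GENCODE on GRCh38 and matched 405 of the 409. Of these, 61 (15.1%) had a called gene as their nearest listed neighbour on either side, against 5.78% of all placed genes. There were 33 such neighbouring pairs, and the signs were alike in 30. They held DCN with LUM, STEAP1 with STEAP2, GSTM2 with GSTM3, and KLK2 with the pseudogene KLKP1 and KLK4. On chromosome 15, 22 of 449 placed genes were called with a negative sign, 4.90% against 1.62% of all genes. From RPP25 to the last placed gene (chr15:74954418-101724473), 17 of 139 genes were called (12.2%), all of them negative and 16 with LV-MEIS1 lower, with a median of -0.55 over the 139. The start of the stretch is a called gene and its limits were drawn from earlier results of these data, so the share is a description that this choice raises. The stretch held 8.84% of the LV-MEIS1-lower class. Neighbours share position and are not independent, and no cause of this was tested.

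Promoter sequence was looked at in RefSeq windows (GRCh38.p14) that run from 250 bases before to 50 after a gene start. Windows were found for 300 of the 409 genes (73.3%), too few to compare classes. For the leading gene of each main class with a single window (GABBR1, SRRM4, CHRNB2 and UGT2B15), both strands were searched for TGACAG, the core bound by MEIS proteins, and CAATAAA, a core bound by HOXB13. TGACAG was in 15.8% of all 35116 windows and CAATAAA in 4.0%. SRRM4 and UGT2B15 each held 1 TGACAG, written in capitals, and the others held neither. The 2 windows with the core are shown 5′ to 3′ on the strand of the gene, SRRM4 from chr12:118981291-118981590 (plus strand) and UGT2B15 from chr4:68670603-68670902 (minus strand). A match is a run of letters and not a measured site.
SRRM4 promoter: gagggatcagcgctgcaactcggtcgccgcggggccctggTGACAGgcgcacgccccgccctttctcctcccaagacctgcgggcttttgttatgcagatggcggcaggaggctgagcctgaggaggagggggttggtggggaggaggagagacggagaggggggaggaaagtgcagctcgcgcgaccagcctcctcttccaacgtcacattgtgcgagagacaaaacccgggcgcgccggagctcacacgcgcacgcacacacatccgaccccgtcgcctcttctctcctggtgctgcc
UGT2B15 promoter: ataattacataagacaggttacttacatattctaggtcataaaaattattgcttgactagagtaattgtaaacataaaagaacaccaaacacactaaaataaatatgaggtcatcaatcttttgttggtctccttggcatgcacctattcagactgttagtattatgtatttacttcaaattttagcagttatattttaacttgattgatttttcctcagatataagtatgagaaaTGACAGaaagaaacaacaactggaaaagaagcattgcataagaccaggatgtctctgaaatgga

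Large differences were not called where libraries of 1 group disagreed. The genes given here were chosen after their values were seen. LPAR4, a lysophosphatidic acid receptor, had the widest value of all (6.00 ± 2.92) with 4762, 22.1 and 6697 CPM in Control and 5.30, 5304 and 154 CPM in HOXB13ko-LV-MEIS1. RING1, a Polycomb subunit in the histocompatibility region, had -5.82 ± 2.09, with 54.8, 66.7 and 2.33 CPM in Control. By limma eBayes the value of RING1 passed (adjusted p = 0.0439) and that of LPAR4 did not (adjusted p = 0.126). With libraries of a group this far apart, neither value is read as a group difference. The estimate of whole reads behind the values was 17100000 to 28600000 per library.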

How the data were processed

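RNA from 12 libraries was sequenced as single short reads. Per the submitters' processing notes the tools were CASAVA 1.8, Trimmomatic 0.38, kallisto 0.43.1 and edgeR 3.22.2, on GRCh38. The deposited values are CPM per gene, computed by the authors after removal of low counts. Of 13993 rows, 42 exact repeats were dropped, leaving 13951 genes. CPM are not counts, and 40.7 to 56.2% of values under 1 CPM lay near whole reads (tolerance 0.05 of a step), so reads were not recovered. Depth was estimated as 17100000 to 28600000 reads from the smallest steps, and intervals were not computed. Values were analysed as log2(CPM + 0.5), which understates changes of low genes, with limma 3.58.1 (treat with trend, Benjamini-Hochberg adjustment over all genes) in R 4.3.3, with 1 mean per group. Python 3.11.15 was used elsewhere. The fit was tested on simulated data. Named genes were those with the largest differences in each class at a mean of at least 1 CPM (6 in each direction where LV-MEIS1 or Control stood apart, 3 otherwise), MEIS1, HOXB13, DCN, LUM, TGFBR3 and ITGB1, and called genes of the lists. The members, classes and lists were chosen with earlier results of these data known. Groups came from the labels. Strand was not used in quantification, so antisense overlaps are uncertain. Positions came from GENCODE (13667 genes matched). Alternatives were pseudocounts, a filter, scalings, a replicate block, eBayes, a stricter threshold, other rules for standing apart and leaving out each library. Results for some genes are not reported here.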

Additional observations from a re-analysis of the deposited data

Results flagged for a closer look

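The effect of MEIS1 differed between the line pairs by a direct test of the difference (limma treat against a 1.5-fold change, adjusted p under 0.05) in 409 genes. The 2 genes with the widest difference in each main class were GABBR1 (3.30 on the log2 scale) and DCN (3.26) among those higher in LV-MEIS1, GPER1 (-4.11) and CDH6 (-3.37) among those lower in LV-MEIS1, HBA2 (-5.10) and NMNAT2 (-4.91) among those higher in Control, and CNTN1 (3.62) and UGT2B15 (1.91) among those lower in Control. HBA2 had LV-MEIS1 under the value of 3 reads, so its fitted size depends on the pseudocount.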

How the results depend on the processing

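No alternative reversed the sign of a named gene. A fit with the replicate number as a block called 356 genes in the difference of effects and 2 genes in the knockout pair. The numbers did not pair the samples, since deviations of same-numbered libraries correlated at -0.21 to 0.15. A pseudocount of 0.1 also called 2 genes in the knockout pair. Tested against no change (limma eBayes), 4771 genes passed for the difference of effects, of which LV-MEIS1 stood apart in 2426, Control in 827, HOXB13ko in 34, HOXB13ko-LV-MEIS1 in 148 and no group in 1336. The same test passed 6207 genes in the intact pair, 7 in the knockout pair, 4590 between HOXB13ko and Control and 6993 between HOXB13ko-LV-MEIS1 and LV-MEIS1. At an adjusted p under 0.01, 272 genes were called, 14 of them with no group apart. A gap of 2 times the range left Control apart in 19 genes and no group in 158, and means of linear CPM left no group apart in 54. Where standing apart meant that replicates of exactly 1 group did not overlap the rest, LV-MEIS1 had 215 genes, Control 12, and 181 had no single group. Leaving out 1 library at a time gave 19 to 35 genes with no group apart, 1 to 3 with HOXB13ko-LV-MEIS1 apart and 1 to 2 called in the knockout pair. Those fits called 333 to 392 genes in the difference of effects, 303 of them in all 12. Of 105 named genes that were called, 83 kept the call in all 12. Genes under a few CPM rest on few reads, and differences there were limited by depth.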

Other observations

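A few interacting genes outside the lists were picked after their values were seen. PTCH1, the hedgehog receptor, stood at 116, 114 and 111 CPM in Control, at 32.3, 37.5 and 37.0 CPM in LV-MEIS1, at 250, 265 and 257 CPM in HOXB13ko and at 218, 215 and 232 CPM in HOXB13ko-LV-MEIS1. LV-MEIS1 was lowest and the knockout lines were above Control, with a difference of effects of -1.45 ± 0.08 (SE, log2 scale). GSTM3, a glutathione transferase, stood at 22.8, 27.0 and 26.6 CPM in Control, at 166, 147 and 153 CPM in LV-MEIS1, at 23.9, 27.7 and 25.7 CPM in HOXB13ko and at 24.4, 25.2 and 25.8 CPM in HOXB13ko-LV-MEIS1, with a difference of effects of 2.62 ± 0.11. Its neighbour GSTM2 belongs to the same family, and close copies may share reads.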
